A study of Mus musculus with 2 samples.

Results

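The endothelin system was described here through 6 genes, the ligands Edn1, Edn2 and Edn3, the receptors Ednra and Ednrb, and the converting enzyme Ece1. They were taken by symbol from the gene list shared by both deposited single-cell matrices, and all 6 were found among its 32285 genes. Single-cell RNA sequencing with the 10x Genomics 3' method, in which each captured transcript carries a unique molecular identifier (UMI), had been run on the anterior eye segment of the mouse with the iris taken off. One library came from control mice, in which both Foxc2 alleles are floxed (Foxc2fl/fl) and no Cre is named. The other came from NC-Foxc2-/- mice, which carry the same floxed alleles and Wnt1-Cre, a driver active in the neural crest (NC). Each library pooled the eyes of 4 to 6 mice, aged 3 to 4 wk by the methods and 4 wk by the labels, and the NC-Foxc2-/- mice had been picked for a moderate eye phenotype. With 1 library per condition no test between conditions was possible. Every difference given here is between these libraries, and the mice within a pool were not distinguished.

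Endothelins are short secreted peptides. Each is made as a long precursor, cut by furin-type proteases and then by endothelin-converting enzymes such as ECE1, and bound by the G protein-coupled receptors EDNRA and EDNRB. EDNRA prefers endothelin-1 and endothelin-2 and drives contraction of smooth muscle and pericytes, whereas EDNRB binds all 3 peptides and, with endothelin-3, is needed for melanocytes and enteric neurons of neural crest origin. In the eye, endothelin-1 is known for its effect on the tone of the trabecular meshwork (TM), through which aqueous humor leaves toward Schlemm's canal (SC), and Edn3 is used as a marker of its beam cells.

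The 3 ligand genes lie apart in the genome, and their mature peptides are each encoded by 21 codons within exon 2. These stretches are shown because they encode the part that the receptors bind and show how the ligands differ. They were read from GENCODE M21 transcripts of GRCm38, the assembly also called mm10, on the plus strand, and capitals mark the 18 positions at which the 3 sequences are not all alike.
Edn1, chr13:42303649-42303711: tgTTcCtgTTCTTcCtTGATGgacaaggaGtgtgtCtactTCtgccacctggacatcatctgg
Edn2, chr4:120161951-120162013: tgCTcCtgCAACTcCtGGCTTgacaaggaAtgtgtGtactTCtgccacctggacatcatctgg
Edn3, chr2:174761749-174761811: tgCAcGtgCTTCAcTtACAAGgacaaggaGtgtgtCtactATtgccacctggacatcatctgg
Edn1 and Edn2 shared 53 of 63 bases (84.1%), Edn1 and Edn3 50 (79.4%), and Edn2 and Edn3 48 (76.2%). The capitals gather in the 5' part, and the stretch after the last of them is the same in all 3. The tags that were sequenced come from the 3' end of the transcripts, not from these stretches.

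On mm10, Edn1 spans chr13:42301476-42307990, Edn2 chr4:120161206-120167360 and Edn3 chr2:174760619-174784042, all on the plus strand. Ednra spans chr8:77663031-77724464 and Ednrb chr14:103814625-103844402, both on the minus strand, and Ece1 chr4:137862237-137965229 on the plus strand. None of the 6 genes shares exon sequence with another gene on its own strand. Exons of Edn1 overlap Gm47118 and exons of Ednra overlap 4933431K23Rik on the opposite strand. The sources used here do not say whether counting used the strand.

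After the filter on mitochondrial UMIs, 10773 control and 10872 NC-Foxc2-/- cells remained, with 119599692 and 94644512 UMIs and medians of 7663 and 6517 UMIs per cell. The fibroblasts, the endothelial subclusters, the uveal meshwork and 3 trabecular meshwork clusters (TM-1, TM-2 and TM-3) carry the study's names. The study used Edn3 among the markers that likened TM-1 and TM-2 to beam cells, and it showed Edn1 for the endothelial subclusters, so that the high level of these genes in those clusters was partly chosen. All kept cells were also clustered anew without the 6 genes, and the remaining classes come from these clusters and are called "-like" after their leading markers. In all there were 19 named classes, and 759 control and 1460 NC-Foxc2-/- cells stayed unnamed. Against the remaining cells of its library, the beam cell gene Gpc3 was at 647 against 56.3 CPM in control TM-1 and at 1199 against 92.8 CPM in NC-Foxc2-/- TM-1. Pdgfra was at 358 against 125 CPM in control TM-1 but at 358 against 295 CPM in NC-Foxc2-/- TM-1, and Tmeff2, at 11.1 against 13.5 CPM and 17.9 against 18.04 CPM, was not higher there. Of 4 beam cell markers, 3 were at least 2-fold higher in control TM-1 and TM-2, 2 in NC-Foxc2-/- TM-1 and 1 in NC-Foxc2-/- TM-2. The juxtacanalicular genes Myoc and Chil1 were at 1481 and 1685 CPM in control TM-3 against 29.6 and 64.4 CPM, and at 1035 and 1469 CPM in NC-Foxc2-/- TM-3 against 41.1 and 102 CPM.

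Levels are given as CPM, the UMIs of a gene per 1000000 UMIs of its class, with an exact Poisson 95% interval where one is printed. Each ratio divides the NC-Foxc2-/- level by that of control, with an exact conditional binomial interval. All intervals cover counting error only, and CPM of different genes are not compared with each other.

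Foxc2 itself, read from its 3' tag, was lower in the NC-Foxc2-/- library in each meshwork cluster. It stood at 39.4 against 8.76 CPM in TM-1 (ratio 0.222, 0.139 to 0.341), at 68.6 against 13.0 CPM in the uveal meshwork and at 130.4 against 2.41 CPM in pericyte-like cells. Endothelial cells, which the study does not count among neural crest derivatives, were at 25.2 against 4.64 CPM. In keratocyte-like cells it went the other way, from 4.04 to 9.79 CPM. The sources used here do not say whether the counted 3' end lies within the deleted stretch, so these UMIs are a partial check of the deletion.

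Over whole libraries, Edn3 and Ednrb were lower and Ednra was higher in NC-Foxc2-/- mice, and the ratios of Edn1 and Ece1 were close to 1. Edn3 was at 77.1 against 51.3 CPM (ratio 0.665, 0.643 to 0.689). Ednrb was at 99.5 against 42.3 CPM (0.425, 0.410 to 0.441) and Edn2 at 14.8 against 4.99 CPM (0.336, 0.303 to 0.372). Ednra was at 16 against 28.2 CPM (1.76, 1.66 to 1.87), Edn1 at 9.77 against 10.53 CPM (1.08, 0.990 to 1.17) and Ece1 at 57.5 against 61.6 CPM (1.07, 1.03 to 1.11).

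The libraries also differed in which cells they held. Corneal epithelial-like cells made up 9.12% of the control and 2.97% of the NC-Foxc2-/- cells, and corneal endothelial-like cells 170 and 9 cells. The class levels of both libraries were therefore also weighted by the UMIs each class held in the NC-Foxc2-/- library or in the control library. The Edn2 ratio, 0.336 unweighted, was then 1.02 at the NC-Foxc2-/- mix and 1.24 at the control mix. In the same order the ratios were 0.600 and 0.581 for Edn3, 0.653 and 0.525 for Ednrb, 1.27 and 1.25 for Ednra, 1.35 and 1.36 for Edn1 and 1.12 and 1.09 for Ece1. Edn3 and Ednrb thus stayed below control at equal class mix and Ednra above it, whereas the lower level of Edn2 did not remain and Edn1 moved further above 1. The weighted Ednrb ratios include corneal endothelial-like cells, at 1746 and 858 CPM, where the NC-Foxc2-/- level rests on the 9 cells. They also include the melanocyte-like class, at 810 and 201 CPM from 177 and 56 cells. How much of the Ednrb difference came from these 2 classes was not tested.

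Of 114 pairs of a named class and an endothelin gene, 59 held at least 50 UMIs over both libraries. Among these, 4 were at least 2-fold higher in NC-Foxc2-/- mice and 8 at least 2-fold lower, which is a rule of size, not a test. Over all genes and named classes the same rule took 3.57% of pairs as higher and 4.52% as lower. Edn1 was higher in macrophage-like cells, Edn2 in conjunctival epithelial-like cells, and Ednra in TM-3 and smooth muscle-like cells. Edn3 was lower in the uveal meshwork, pericyte-like and Schwann cell-like cells, Edn1 in TM-3, and Ednrb in TM-3, limbal epithelial-like, corneal endothelial-like and melanocyte-like cells. Ece1 passed in no named class.

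**Figure D1:**
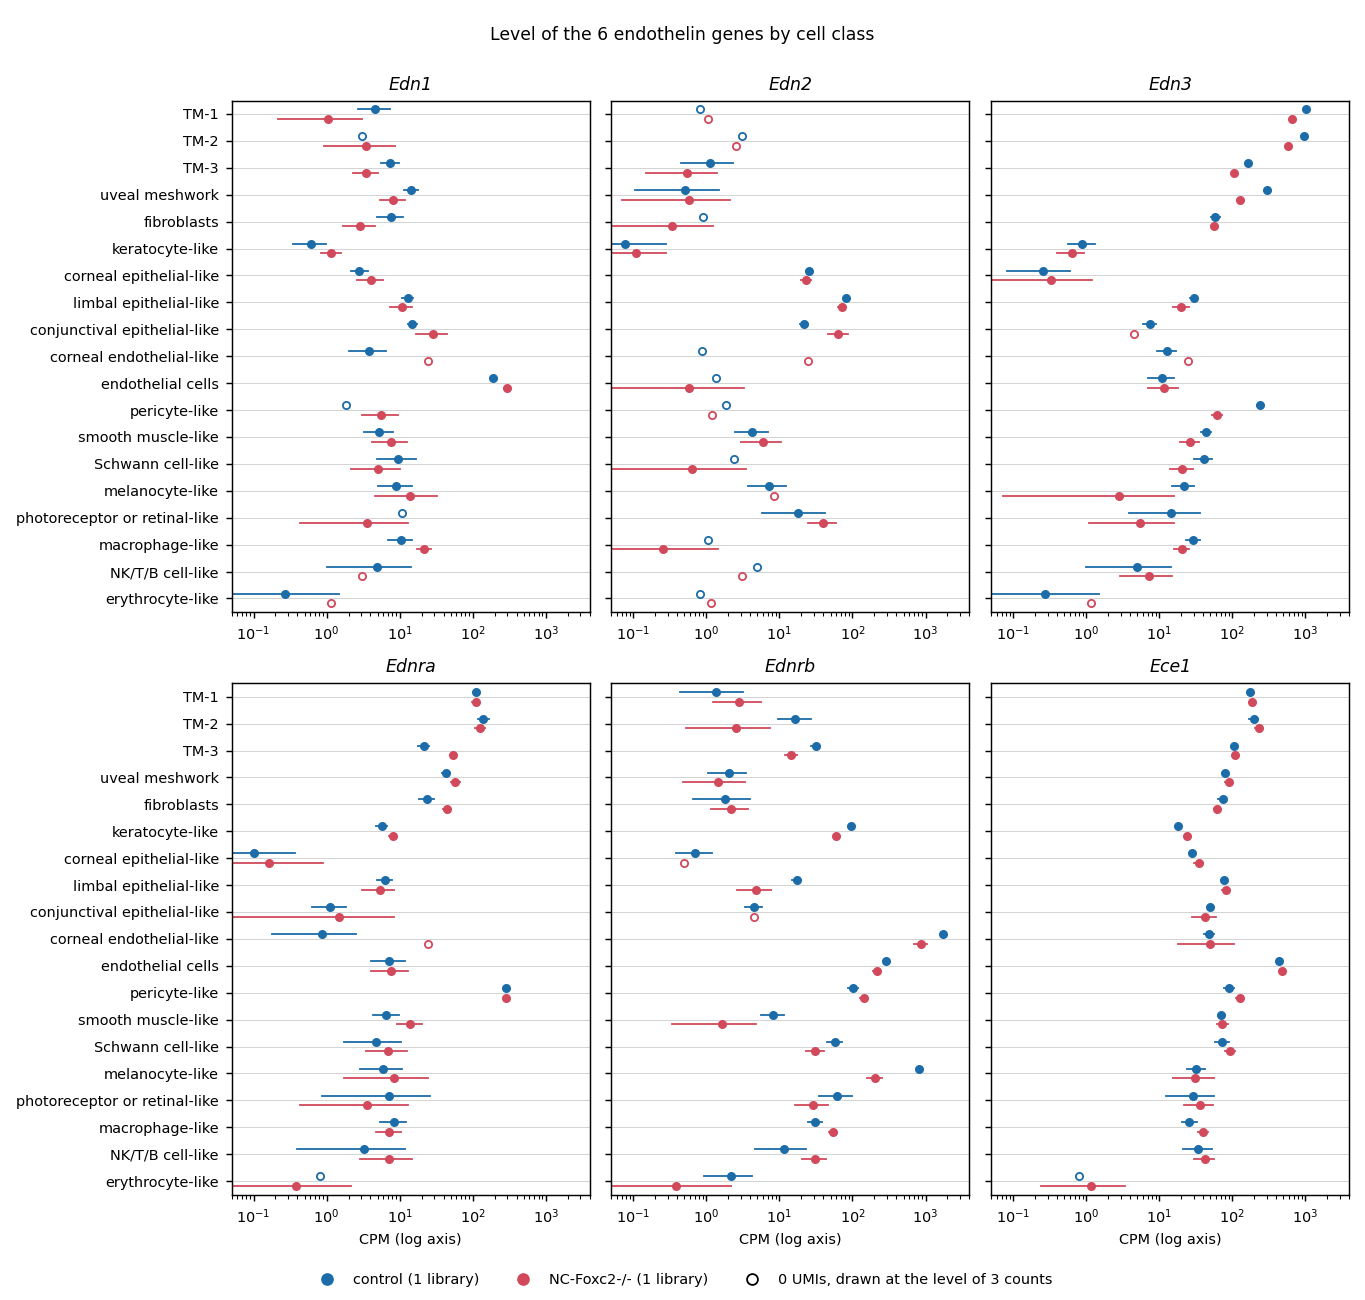
Level of each of the 6 genes (x axis, CPM, log scale) in the 19 named cell classes (y axis), 1 point per library with its 95% counting interval, control and NC-Foxc2-/- in separate colours; open points mark 0 UMIs, drawn at the level 3 counts would give. Edn3 reaches 1011 CPM in control TM-1 and 646 CPM in NC-Foxc2-/- TM-1, and Ednrb 1746 and 858 CPM in corneal endothelial-like cells.

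Edn3, the ligand that prefers EDNRB, came mainly from the trabecular meshwork, and its level there was lower in NC-Foxc2-/- mice. The uveal meshwork and the 3 TM clusters together held 80.4% (79.5 to 81.2) of all control Edn3 UMIs and 77.0% (75.8 to 78.2) of those in NC-Foxc2-/- mice. TM-1 and TM-2 alone held 50.5% and 51.8%, from 7.42% and 6.95% of the cells.

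In TM-1, Edn3 was at 1011 CPM (979 to 1044) in control cells and 646 CPM (617 to 676) in those of NC-Foxc2-/- mice (ratio 0.639, 0.604 to 0.676). In TM-2 it was at 943 CPM (883 to 1006) and 577 CPM (534 to 622), a ratio of 0.612 (0.553 to 0.676). The counting intervals of TM-1 and TM-2 overlapped in each library, which does not show that their levels were equal. Neither ratio reached 2-fold, and 7.05% of the 8468 genes tested in TM-1 and 6.36% of the 4799 genes tested in TM-2 had a ratio as low.

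Per cell, the difference lay across the whole distribution in TM-1. The median control cell of TM-1 held 5 Edn3 UMIs and the median NC-Foxc2-/- cell 2, the highest cells 68 and 29, and the means were 6.15 and 3.69. Cells without an Edn3 UMI made up 8.54% of control and 19.6% of NC-Foxc2-/- cells, and cells with 11 or more UMIs 16.1% and 6.01%. In TM-2 the medians were 4 and 2 UMIs, and 9.47% and 25.7% of the cells held none. Thinned to 1000 UMIs per cell, which left out 1 NC-Foxc2-/- cell, the share of TM-1 cells with an Edn3 UMI was 55.0% (51.0 to 59.0) in the control library and 43.8% (39.4 to 48.3) in the other.

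Erythrocyte-like cells, which should lack Edn3 transcripts, served as the measure of free RNA. Of 974 control cells 1 held an Edn3 UMI (0.103%) and of 647 NC-Foxc2-/- cells none did, at median depths of 4015 and 4085 UMIs against 5602 and 5241 in TM-1. Corneal epithelial-like cells, with medians of 18760.5 and 19314 UMIs, were at 0.252 and 0.326 CPM of Edn3. The levels in the meshwork thus stood far above this background.

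**Figure D2:**
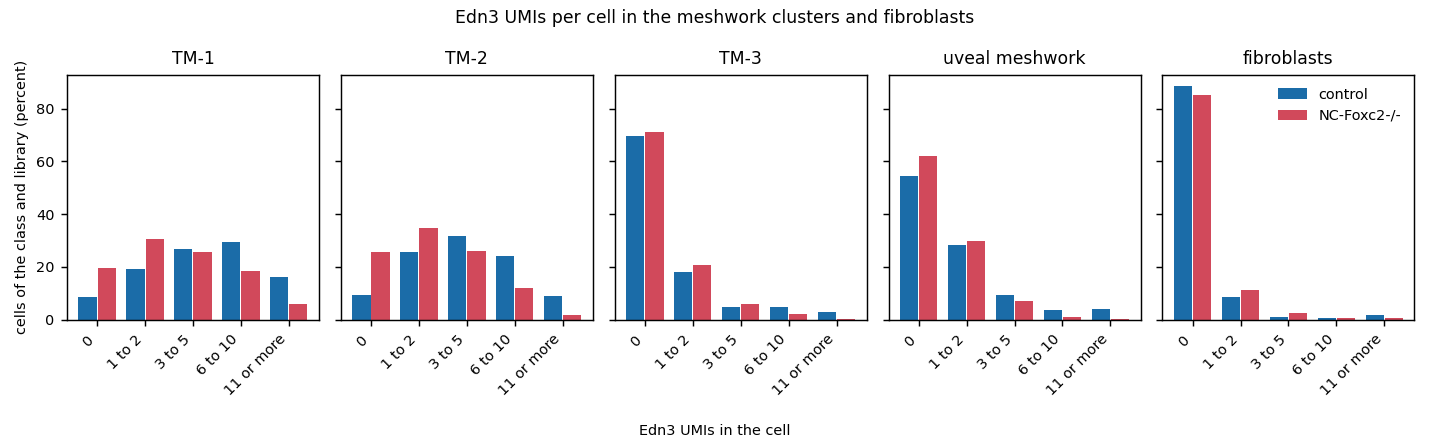
Share of cells (y axis, percent of the class and library) by the number of Edn3 UMIs in the cell (x axis, bins) for fibroblasts, uveal meshwork and the 3 TM clusters, with 1 bar per library. In TM-1 the share at 0 is 8.54% in control and 19.6% in NC-Foxc2-/- mice, and the share at 11 or more is 16.1% and 6.01%.

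In TM-3, Edn3 was at 161 CPM (151 to 171) in control cells and 105 CPM (98.04 to 113) in those of NC-Foxc2-/- mice (ratio 0.654, 0.595 to 0.719), but a few cells set both levels. Some 69.7% of control and 71.1% of NC-Foxc2-/- cells of TM-3 had no Edn3 UMI, and the 10% of cells with the most Edn3 UMIs held 76.2% and 64.2% of the UMIs. The TM-3 cells that fell in the rebuilt juxtacanalicular cluster, 696 and 625 cells, were at 54.4 and 48.9 CPM (0.900, 0.754 to 1.07). By contrast the 41 and 88 TM-3 cells that fell in the rebuilt beam cell cluster were at 1220 and 456 CPM (0.374, 0.311 to 0.448). A further rebuilt cluster was led, over all its cells, by striated muscle genes such as Myod1, Tnnc2, Mylpf and Acta1. It took in 93 of the 852 control and 381 of the 1140 NC-Foxc2-/- cells of TM-3, in which Edn3 was at 877 and 153 CPM (0.175, 0.150 to 0.204). Over all of TM-3 the striated muscle markers summed to 5.27 and 8.33 CPM, and their part in the result was not tested. The difference in TM-3 was therefore found in the cells of these other clusters and was not detectable in those of the juxtacanalicular one.

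In the uveal meshwork, which aqueous humor crosses first, Edn3 was at 295 CPM (281 to 309) in control cells and 127 CPM (116 to 140) in those of NC-Foxc2-/- mice (ratio 0.432, 0.388 to 0.480). Of the genes tested in this cluster 1.49% were at least 2-fold lower. The same split applied: in the rebuilt uveal cluster, with 789 and 442 of its cells, Edn3 was at 133 and 91.7 CPM (0.689, 0.589 to 0.802), and in the rebuilt beam cell cluster, with 174 and 94 of its cells, at 988 and 354 CPM (0.359, 0.304 to 0.421). These splits were chosen after the data were seen.

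Pericyte-like cells, contractile cells of small vessels, had the lowest Edn3 ratio of the classes with at least 50 Edn3 UMIs and some in both libraries. Conjunctival epithelial-like cells, with 99 control and 0 NC-Foxc2-/- UMIs, had a ratio known only to be at most 0.604. In pericyte-like cells the level was 238 CPM (215 to 263) in the control library and 61.5 CPM (52.1 to 72.0) in the other (ratio 0.258, 0.213 to 0.312). Of the genes tested in pericyte-like cells 3.65% were at least 2-fold lower. The share of these cells with an Edn3 UMI was 34.9% and 13.9%, or 20.5% and 6.40% after thinning to 1000 UMIs. The beam cell markers summed to 77.4 and 72.3 CPM in this class, the fibroblast markers to 106 and 250 CPM, and the pericyte markers to 7366 and 5313 CPM, and their part in the result was not tested. Cells with a UMI of Dcn, a matrix proteoglycan of fibroblasts, were at 288 CPM (246 to 335) and 64.2 CPM (51.7 to 78.8), and cells without one at 211 CPM (184 to 240) and 57.8 CPM (44.3 to 74.2). Edn3 was thus lower in NC-Foxc2-/- mice on both sides of this split, which was added after the data were seen.

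Fibroblasts did not share the lower level. Edn3 was at 58.1 CPM (50.2 to 66.9) in control and 56.7 CPM (50.8 to 63.0) in NC-Foxc2-/- fibroblasts, a ratio of 0.975 (0.815 to 1.17). Their direction depended on a few high cells: in the rebuilt fibroblast cluster alone the levels were 36.0 and 51.4 CPM, a ratio of 1.43 (1.15 to 1.78), and the mean over cells gave 0.793. In NC-Foxc2-/- mice the counting intervals of fibroblasts and pericyte-like cells overlapped.

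In Schwann cell-like cells Edn3 was at 40.6 CPM (51 UMIs) and 20.3 CPM (32 UMIs), a ratio of 0.4999 (0.311 to 0.793) that just met the 2-fold rule, which 1.7% of the genes tested met on the lower side. Without cells called as doublets it was at 19.2 and 15.9 CPM (0.831, 0.449 to 1.54). Smooth muscle-like cells were at 43.7 and 26.0 CPM (0.594, 0.422 to 0.824), limbal epithelial-like cells at 29.4 and 20.05 CPM and macrophage-like cells at 29.1 and 20.3 CPM. Keratocyte-like cells, the largest class, held 23 Edn3 UMIs in either library, or 0.884 and 0.625 CPM.

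Edn1, the vasoconstrictor ligand named after the endothelium, came from endothelial cells more than from any other class. These were 1.92% of the control and 2.33% of the NC-Foxc2-/- cells, and they held 36.3% (33.5 to 39.1) and 50.7% (47.5 to 53.8) of the Edn1 UMIs. Their level was 191 CPM (173 to 210) in the control library and 293 CPM (268 to 320) in the other (ratio 1.53, 1.34 to 1.75). The mean over cells gave 1.14 and cells thinned to 1000 UMIs gave 0.951, so that the direction was not stable, and 34.8% and 31.2% of the cells held an Edn1 UMI.

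Among the endothelial subclusters, blood endothelial cells 3 (BEC-3), which the study linked to the choriocapillaris by Ihh, had the highest level. BEC-3 held 600 CPM (516 to 693) of Edn1 in the control library and 570 CPM (486 to 663) in the other. BEC-2 was at 328 CPM (225 to 464) and 451 CPM (380 to 530), and BEC-6 at 222 CPM (165 to 292) and 351 CPM (280 to 435). BEC-4, at 144 and 137 CPM, and BEC-5, at 169 and 139 CPM, lay lower in both libraries. The NC-Foxc2-/- ECs, a subcluster of 22 cells present in that library alone, were at 329 CPM (238 to 444). Only BEC-6 had a ratio whose counting interval lay above 1 (1.58, 1.10 to 2.29), and BEC-2 went from 12 to 59 cells between the libraries. These intervals treat UMIs as independent, but single cells weighed heavily. The highest of 20 NC-Foxc2-/- BEC-6 cells held 39 of the 84 UMIs, and the highest of 59 NC-Foxc2-/- BEC-2 cells held 84 of 144. The direction in BEC-6 and BEC-2 is therefore not established.

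In the SC and lymphatic ECs, which include the lining of the outflow canal, Edn1 UMIs were few. Their 84 control cells held 45 Edn1 UMIs, or 53.5 CPM (39.0 to 71.5), and their 23 NC-Foxc2-/- cells held none. A count of 0 allows up to 3 UMIs in those 23 cells, which bounds the ratio at 0.302 or lower. That bound treats UMIs as independent, but the 45 UMIs came from 10 control cells, the highest with 19. The share of cells with an Edn1 UMI was 11.9% (5.86 to 20.8) for control and 0% (0 to 14.8) for the other library, and these intervals overlapped. BEC-1 had 0 UMIs in 8 control cells and 12 UMIs in 25 NC-Foxc2-/- cells.

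**Figure D3:**
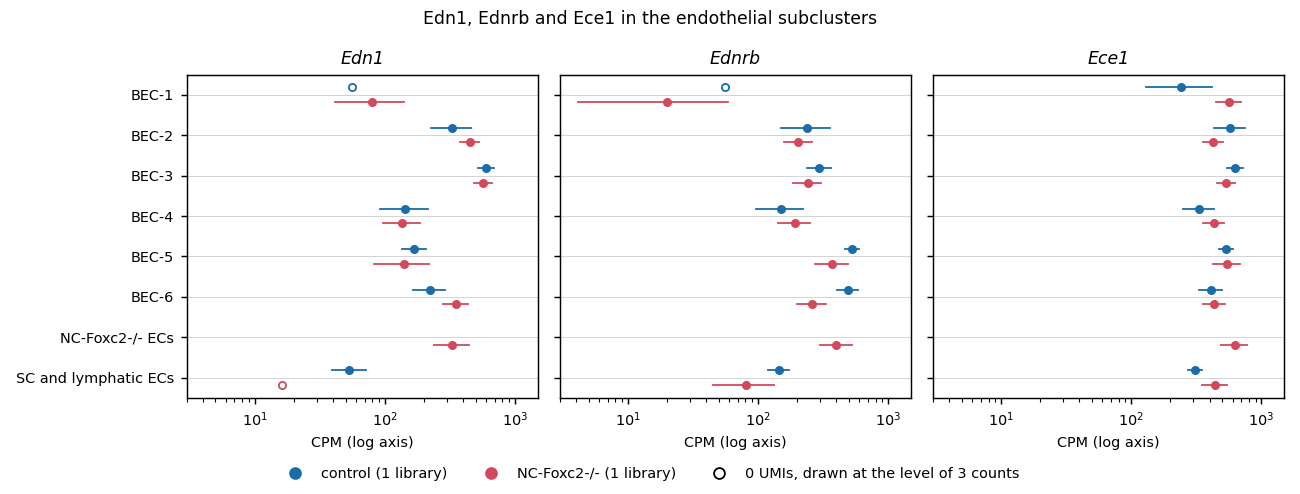
Level of Edn1, Ednrb and Ece1 (x axis, CPM, log scale) in the 8 endothelial subclusters (y axis), 1 point per library with its 95% counting interval; open points mark 0 UMIs, drawn at the level 3 counts would give. Edn1 is at 53.5 CPM in control SC and lymphatic ECs and at 0 UMIs in those of NC-Foxc2-/- mice, and at 600 and 570 CPM in BEC-3.

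Outside the endothelium Edn1 was scarce. Conjunctival epithelial-like cells were at 15.02 and 28.3 CPM, limbal epithelial-like cells at 12.9 and 10.6 CPM, and the uveal meshwork at 14.5 and 8.11 CPM (0.559, 0.351 to 0.865). TM-3 was at 7.51 CPM (47 UMIs) and 3.49 CPM (26 UMIs), a ratio of 0.465 (0.276 to 0.766), where 2.27% of the genes tested in TM-3 were at least 2-fold lower. Edn1 was also lower in fibroblasts, at 7.53 and 2.85 CPM, and in TM-1, at 4.59 and 1.05 CPM, but these rest on 25 and 17 UMIs and on 17 and 3 UMIs. In macrophage-like cells it was at 10.4 CPM (30 UMIs) and 21.5 CPM (84 UMIs), a ratio of 2.07 (1.35 to 3.25), against 2.07% of the genes tested there that were at least 2-fold higher. Without doublets the ratio in macrophage-like cells was 1.65, and endothelial markers in these cells summed to 15.6 and 26.7 CPM, whose part in the result was not tested.

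Edn2, a close relative of Edn1, was a gene of the surface epithelia. Limbal epithelial-like cells, from the border of the cornea, held 53.2% of its UMIs in control and 49.2% in NC-Foxc2-/- mice, and corneal epithelial-like cells 27.9% and 30.3%. Its level was 81.9 CPM (76.7 to 87.3) and 72.7 CPM (63.6 to 82.6) in limbal, and 25.0 CPM (22.9 to 27.3) and 23.3 CPM (19.6 to 27.4) in corneal epithelial-like cells, with ratios of 0.888 (0.766 to 1.03) and 0.931 (0.767 to 1.12). Both intervals held 1, but without doublets, which were 32.5% of the control and 26.2% of the NC-Foxc2-/- limbal cells, the limbal ratio was 0.537 (0.447 to 0.640).

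Conjunctival epithelial-like cells were at 21.7 CPM (19.2 to 24.3) and 64.1 CPM (46.4 to 86.3) of Edn2, a ratio of 2.96 (2.09 to 4.08). This rests on 29 NC-Foxc2-/- cells, of which 10.3% held an Edn2 UMI, beside 466 control cells with 11.2%. Of the genes tested there 5.05% were at least 2-fold higher, the conjunctival markers of the class summed to 2730 and 1451 CPM and the limbal ones to 9975 and 5337 CPM, and their part was not tested. Photoreceptor or retinal-like cells were at 17.8 CPM (5 UMIs) and 39.2 CPM (22 UMIs). In the 4 meshwork clusters together Edn2 had 10 and 6 UMIs.

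**Figure D4:**
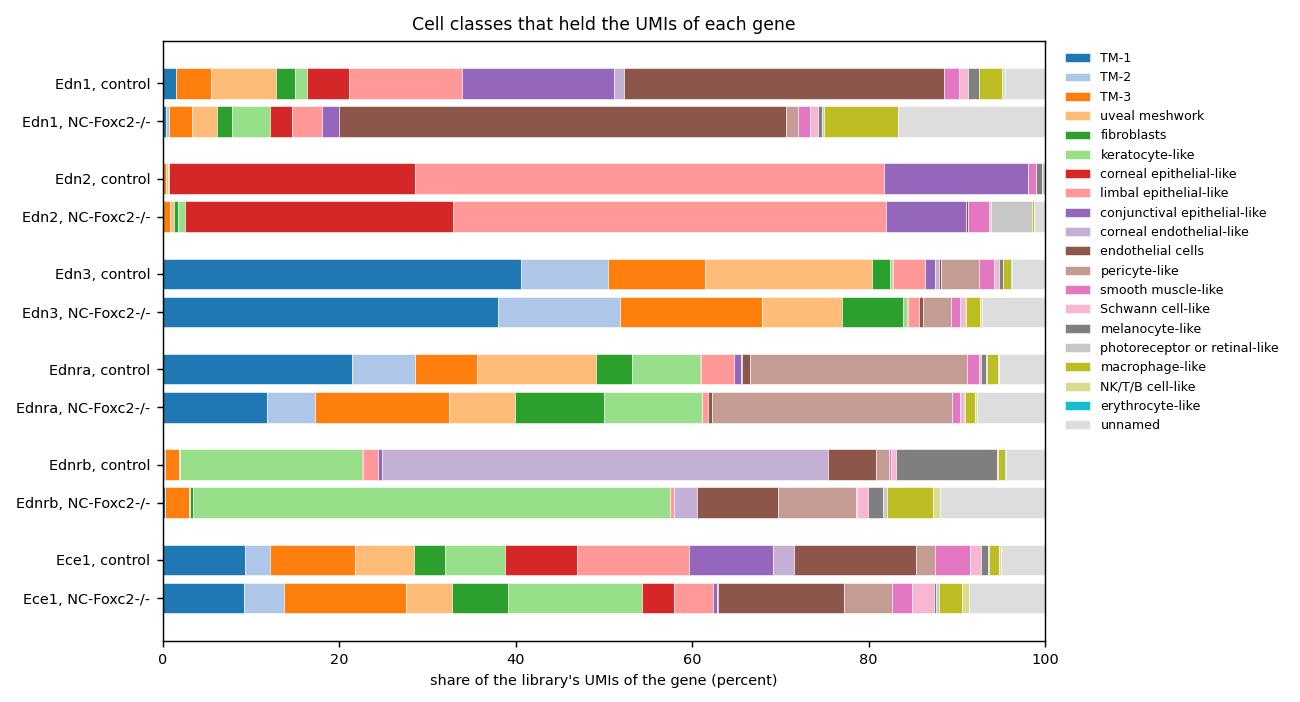
Share of each gene's UMIs (x axis, percent of the library's UMIs of that gene) held by each cell class, 1 stacked bar per gene and library. TM-1 and TM-2 hold 50.5% and 51.8% of Edn3, limbal epithelial-like cells 53.2% and 49.2% of Edn2, and corneal endothelial-like cells 50.6% of Ednrb in control.

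Ednra, the receptor that mediates constriction, was found mainly in pericyte-like and meshwork cells. Pericyte-like cells held 24.6% of its UMIs in control and 27.1% in NC-Foxc2-/- mice, and the 4 meshwork clusters 49.1% and 40.0%. In pericyte-like cells its level was 287 CPM (262 to 314) and 290.5 CPM (270 to 312), a ratio of 1.012 (0.900 to 1.14), and 60.1% and 61.0% of these cells held an Ednra UMI. TM-1, at 111 and 110 CPM (0.989, 0.851 to 1.15), and TM-2, at 140 and 126 CPM (0.899, 0.707 to 1.14), had ratios with an interval that held 1. Both clusters also carried Edn3, and 40.6% of control and 30.5% of NC-Foxc2-/- TM-1 cells held UMIs of both Edn3 and Ednra. No Edn3 UMI was found in 8.54% and 19.6% of TM-1 cells, and no Ednra UMI in 55.7% and 62.9%. Whether the genes met in the same cells more often than these separate shares would give was not tested.

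TM-3 was the class in which Ednra differed most. It was at 21.6 CPM (18.1 to 25.5) in control cells and 54.3 CPM (49.1 to 59.8) in those of NC-Foxc2-/- mice (ratio 2.52, 2.06 to 3.08), where 3.63% of the genes tested in TM-3 were at least 2-fold higher. Some 12.6% (10.4 to 14.97) and 17.7% (15.5 to 20.1) of its cells held an Ednra UMI. In the TM-3 cells of the rebuilt juxtacanalicular cluster the levels were 19.9 and 35.9 CPM (1.81, 1.41 to 2.32), in those of the rebuilt beam cell cluster 48.3 and 52.3 CPM (1.08, 0.514 to 2.44), and in those of the cluster led by striated muscle genes 31.8 and 98.8 CPM (3.11, 1.81 to 5.79), from 93 and 381 cells. Over all of TM-3 the striated muscle markers summed to 5.27 and 8.33 CPM, the fibroblast markers to 376 and 551 CPM, the beam cell markers to 390 and 487 CPM and the smooth muscle markers to 682 and 1071 CPM, and their part was not tested.

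Fibroblasts, at 23.5 and 44.8 CPM of Ednra (1.91, 1.48 to 2.49), and the uveal meshwork, at 43.3 and 58.2 CPM (1.34, 1.11 to 1.62), were also higher in NC-Foxc2-/- mice but under the 2-fold rule. Keratocyte-like cells were at 5.69 and 8.05 CPM (1.41, 1.16 to 1.74). Smooth muscle-like cells were at 6.63 CPM (25 UMIs) and 14.1 CPM (26 UMIs), a ratio of 2.12 (1.18 to 3.83), where 1.55% of the genes tested were at least 2-fold higher. Thinned to 1000 UMIs per cell their ratio was 1.04, and pericyte markers in them summed to 296 and 482 CPM, whose part was not tested. Endothelial cells were at 7.21 and 7.54 CPM of Ednra.

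Ednrb, the receptor that binds all 3 ligands, was found mainly in classes with little Ednra. Corneal endothelial-like cells, the pump layer at the back of the cornea, were at 1746 CPM (1702 to 1790) in control, and every one of their 170 cells held an Ednrb UMI. These 1.58% of the cells carried 50.6% of the control UMIs. The 9 cells of the class in the NC-Foxc2-/- library were at 858 CPM (703 to 1038), a ratio of 0.492 (0.402 to 0.596), and all 9 held a UMI. Of the genes tested in that class 13.1% were at least 2-fold lower, and 12.5% had a ratio as low as Ednrb. Left without corneal endothelial-like and melanocyte-like cells, an alternative added after the data were seen, the libraries had an Ednrb ratio of 1.03 in place of 0.425. That ratio is not at equal class mix, and keratocyte-like cells were 14.6% of control and 22.2% of NC-Foxc2-/- cells. Among the remaining named classes with at least 50 Ednrb UMIs, ratios ran from 0.274 in limbal epithelial-like to 1.75 in macrophage-like cells. Keratocyte-like cells were at 0.626 and endothelial cells at 0.731.

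The melanocyte-like class was led by the pigment genes Tyrp1, Pmel, Dct, Mlana and Slc45a2 and also by Ttr, Ptgds, Rgr, Kcnj13 and Rlbp1, genes known from the pigment epithelium of the eye. Ednrb was at 810.5 CPM (768 to 855) in 177 control cells and 201 CPM (157 to 253) in 56 NC-Foxc2-/- cells, a ratio of 0.248 (0.192 to 0.314), where 11.8% of the genes tested were at least 2-fold lower. No Ednrb UMI was found in 54.2% and 82.1% of the cells. The melanocyte markers of the class summed to 27110 and 5970 CPM and ciliary epithelial markers to 1416 and 133 CPM, and their part in the result was not tested. Cells with a UMI of Mlana, a melanosome gene, numbered 144 and 16, and they were at 905 CPM (858 to 955) and 909 CPM (698 to 1163), a ratio of 1.00. Cells without one, 33 and 40, were at 16.7 and 28.1 CPM. No lower Ednrb was thus detectable in the Mlana-bearing cells, a split added after the data were seen.

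Keratocyte-like cells, the stromal cells of the cornea and the largest class, held 20.6% of the Ednrb UMIs in control and 54.1% in NC-Foxc2-/- mice. Their level was 94.1 CPM (90.5 to 97.95) and 58.9 CPM (56.4 to 61.4), a ratio of 0.626 (0.590 to 0.663), and 4.65% of the 12103 genes tested in them had a ratio as low. The median cell held 1 Ednrb UMI in control and 0 in NC-Foxc2-/- mice, and 61.1% and 46.3% of the cells held at least 1, or 7.54% (6.29 to 8.96) and 5.38% (4.51 to 6.35) after thinning to 1000 UMIs. Erythrocyte-like cells, at 0.821% and 0.155%, gave the background of Ednrb UMIs at median depths of 4015 and 4085 UMIs against 15990 and 14600 in keratocyte-like cells.

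Endothelial cells were at 292 CPM (270 to 315) and 213 CPM (192 to 236) of Ednrb, a ratio of 0.731 (0.642 to 0.832). By subcluster, BEC-5 was highest in control, at 527 CPM (467 to 593), followed by BEC-6 at 488 CPM (401 to 588), and their intervals overlapped. In NC-Foxc2-/- mice the subcluster of that library alone, at 398 CPM (298 to 522), and BEC-5, at 372 CPM (274 to 493), were highest and also overlapped. BEC-6 stood at 259 CPM (199 to 332) in NC-Foxc2-/- mice (ratio 0.531, 0.383 to 0.732). SC and lymphatic ECs were at 144 CPM (119 to 172) and 80.7 CPM (45.2 to 133), a ratio of 0.561 (0.305 to 0.963) from 121 and 15 UMIs. Cells with both Edn1 and Ednrb made up 28.5% of endothelial cells in control and 14.6% in NC-Foxc2-/- mice. No Edn1 UMI was found in 65.2% and 68.8% of endothelial cells and no Ednrb UMI in 37.7% and 56.9%, at median depths of 7882 and 5452 UMIs. The part of depth and subcluster mix in the joint share was not tested.

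In TM-3, Ednrb was at 31.5 CPM (27.2 to 36.2) and 14.5 CPM (108 UMIs), a ratio of 0.461 (0.361 to 0.586). Of the genes tested there 2.27% were at least 2-fold lower. The rebuilt juxtacanalicular part of TM-3 was at 36.6 and 19.5 CPM (0.534, 0.413 to 0.687). No Ednrb UMI was found in 89.1% and 93.6% of TM-3 cells, and the top 10% of control cells held 95.9% of the UMIs. Without doublets the levels in TM-3 were 28.0 and 14.6 CPM (0.521, 0.406 to 0.666), short of the 2-fold rule. Corneal endothelial markers ranked second in the rebuilt juxtacanalicular cluster, and their part was not tested. TM-1 held 5 and 8 Ednrb UMIs and the uveal meshwork 12 and 5, so that within the meshwork Ednrb was nearly confined to TM-3, which held 197 of 230 such UMIs in control and 108 of 124 in NC-Foxc2-/- mice. Pericyte-like cells were at 103 and 143 CPM (1.39, 1.15 to 1.68), macrophage-like cells at 30.9 and 54.1 CPM (1.75, 1.36 to 2.27) and Schwann cell-like cells at 57.3 and 31.1 CPM (0.542, 0.369 to 0.790).

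In limbal epithelial-like cells Ednrb was at 17.2 and 4.70 CPM, a ratio of 0.274 (0.150 to 0.462), where 6.73% of the genes tested were at least 2-fold lower. Melanocyte markers in this class summed to 83.1 and 2.19 CPM, keratocyte markers to 5211 and 3699 CPM. Without doublets Ednrb was at 1.98 and 1.33 CPM there (0.673, 0.124 to 2.41), so that the difference was not detectable outside cells called as doublets.

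**Figure D5:**
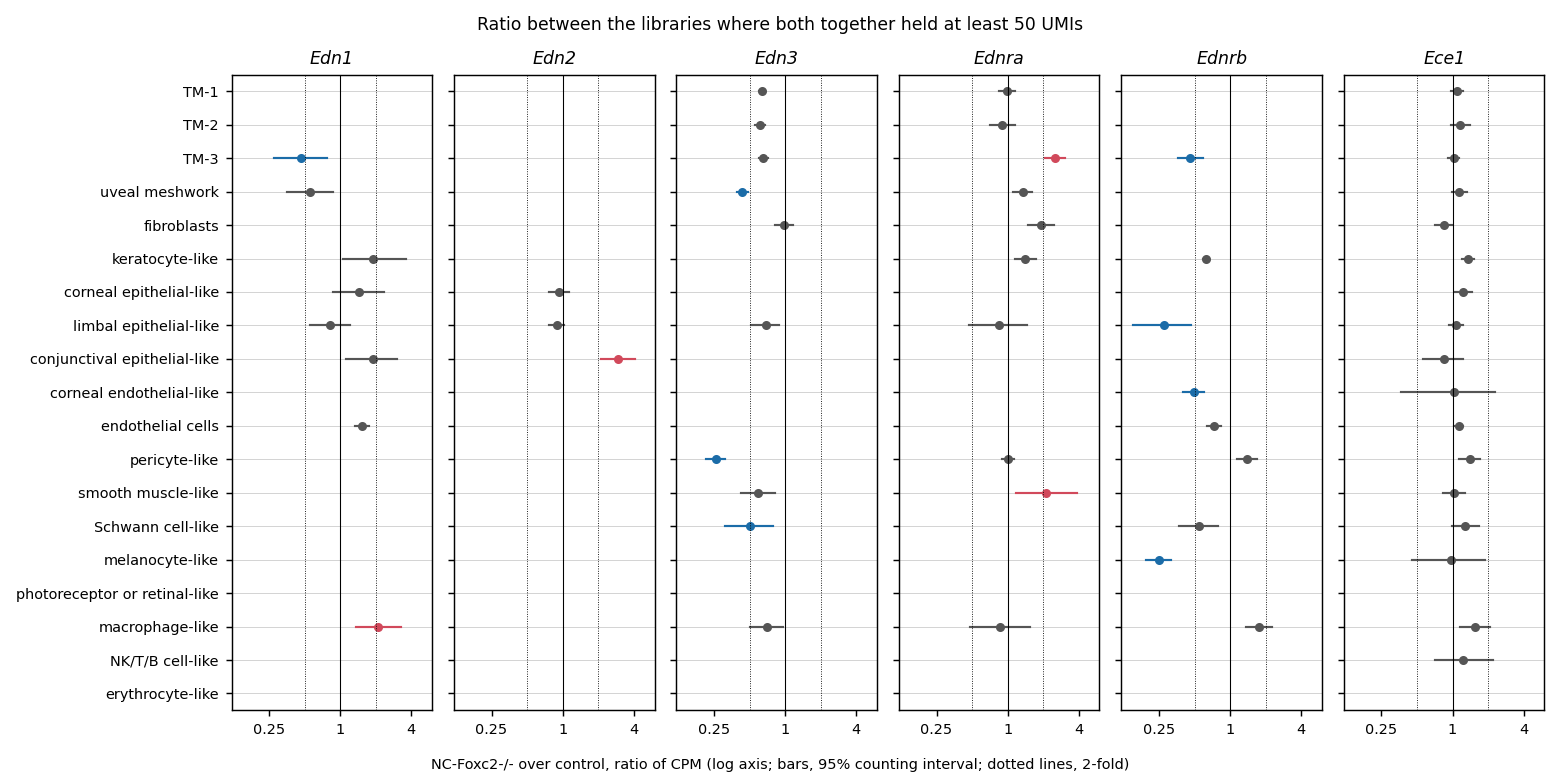
Ratio of NC-Foxc2-/- to control CPM (x axis, log scale) for each gene and named class (y axis) with at least 50 UMIs over both libraries and some in each. Edn3 and Ednrb in conjunctival epithelial-like cells, with 0 NC-Foxc2-/- UMIs, are not drawn. Bars are 95% counting intervals, the solid line marks 1 and dotted lines mark 2-fold in either direction. Edn3 lies to the left of 1 in pericyte-like cells (0.258), the uveal meshwork (0.432), TM-2 (0.612), TM-1 (0.639) and TM-3 (0.654), and Ednra to the right in TM-3 (2.52).

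Ece1, which makes the active peptides, was found in most classes, and none of the 19 named classes passed the 2-fold rule. Endothelial cells were highest, at 429 CPM (402 to 457) and 483 CPM (450 to 517), with 88.4% and 81.8% of cells holding a UMI. TM-2 followed at 196 CPM (169 to 226) and 229 CPM (202 to 258) and TM-1 at 173 CPM (160 to 187) and 188 CPM (172 to 204), and the intervals of TM-1 and TM-2 overlapped in both libraries. Keratocyte-like cells were at 17.95 and 24.1 CPM (1.34, 1.2 to 1.51), pericyte-like cells at 90.8 and 127 CPM (1.39, 1.14 to 1.71) and macrophage-like cells at 25.7 and 39.7 CPM (1.55, 1.17 to 2.07). Among the endothelial subclusters found in both libraries, only BEC-1 had an Ece1 ratio above 2-fold, at 243 CPM (13 UMIs) and 559 CPM (84 UMIs). This ratio of 2.30 (1.28 to 4.50) rests on 8 control and 25 NC-Foxc2-/- cells. The share of all genes past 2-fold was not worked out for the subclusters, so it has no background to be read against. Fibroblasts, at 73.2 and 61.5 CPM (0.841, 0.713 to 0.993), had a ratio with an interval below 1.

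Sources and receptors lay side by side in several classes. In TM-1 and TM-2 the ligand Edn3 stood beside Ednra and Ece1, with Ednrb nearly absent. In the endothelium Edn1 stood beside Ednrb and Ece1, with Ednra nearly absent. In TM-3, all of Edn3, Ednra and Ednrb were found, each in a minority of the cells. UMIs of both Edn3 and Ednra were held by 5.05% of control and 6.05% of NC-Foxc2-/- cells, and those of both receptors by 0.939% and 1.05%. Such shares depend on how many cells hold each gene, so they are not compared between clusters. Over the 5 members tested in TM-3 the median log2 ratio was -0.61, beside 0.06 over all genes tested there; in pericyte-like cells these medians were 0.25 and 0.07.

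Across 17 classes with at least 50 cells in each library, the level of Edn3 followed that of Ednra, with a Pearson correlation of log2(CPM + 1) of 0.87 over 34 points, 1 per class and library. The points share libraries and depth, and the value is a description. The genes most like Edn3 in this measure were Dact1 (0.932), Aldh1a2 (0.930), Cyp1b1 (0.915), Cxcl12 (0.908) and Medag (0.899). Aldh1a2 makes retinoic acid, and Cyp1b1 encodes a cytochrome P450 known from congenital glaucoma. Those most like Ednra were Kcne4 (0.973), Crispld2 (0.936), Medag (0.911), Il1r1 (0.899) and Tbx3 (0.895). For Edn1 they were Vwf, Shroom4, Abcc4, Egfl7 and Spns2 (0.780 to 0.794), among them the endothelial genes Vwf and Egfl7, and for Edn2 Lad1, Ckmt1, Tmem215, Kdf1 and Marveld3 (0.857 to 0.890). For Ednrb, Itpkb, Wdr73, Slc4a8 and Tspan13 reached only 0.714 to 0.746. For Ece1, Trim8, Zcchc14, Zswim6, Ppp1r2 and Rps6ka3 reached 0.919 to 0.934. These lists depended on the measure. By Spearman correlation, only Dact1 and Aldh1a2 stayed among the 5 genes most like Edn3, and only Kcne4 and Il1r1 for Ednra. Of the genes named here, only Abcc4 stayed for Edn1, Zcchc14 for Ece1 and Wdr73 for Ednrb, and no gene stayed for Edn2.

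Few of the other genes of the pathway differed by 2-fold. Over 26 genes of ligand processing and breakdown, G proteins, phospholipase C with calcium release, and desensitization, 291 pairs of class and gene held at least 50 UMIs, and 9 were at least 2-fold higher and 15 at least 2-fold lower, with a median log2 ratio of -0.11, beside the 3.57% and 4.52% of all genes and classes given above. That was 0 higher and 2 lower of 20 for processing, 2 and 0 of 10 for breakdown, 2 and 2 of 105 for G proteins, 1 and 5 of 89 for phospholipase C and calcium release, and 4 and 6 of 67 for desensitization. None of these pairs lay in the uveal meshwork, in TM-1 or in TM-3.

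Furin, the first protease of the precursors, was at 103 and 99.2 CPM in TM-1 and at 119 and 101 CPM in endothelial cells, and passed the fold rule in no class. Mcpt4 and Cma1, mast cell chymases that can process big endothelin, were counted in macrophage-like cells, at 144 and 26.2 CPM (0.182, 0.145 to 0.227) and at 55.5 and 11.3 CPM (0.203, 0.142 to 0.285). These were the 2 lower pairs of the processing list. Mast cell markers ranked second in the macrophage-like cluster, and a cluster in which mast cell and macrophage markers tied stayed unnamed. How far the number of mast cells within the class set these ratios was not tested. Mme, the peptidase neprilysin, which breaks endothelins down, was at 132 and 166 CPM in keratocyte-like cells (1.26, 1.21 to 1.31) and at 9.93 and 27.5 CPM in fibroblasts (2.77, 1.89 to 4.15). Gna11 is a G protein alpha subunit through which the receptors act. It was at 126 and 97.1 CPM in TM-1 (0.770, 0.661 to 0.895) and at 173 and 80.6 CPM in fibroblasts (0.467, 0.412 to 0.528). Of the genes tested in fibroblasts 4.84% were at least 2-fold higher and 6.09% at least 2-fold lower. In pericyte-like cells Itpr1, a calcium channel of the endoplasmic reticulum, was at 105 and 180 CPM (1.70, 1.43 to 2.04), whereas Prkca, a protein kinase C, was at 106 and 49.8 CPM (0.470, 0.370 to 0.595). Rgs2, which shortens Gq signalling, was at 228 and 112 CPM there (0.494, 0.421 to 0.578). Rgs5, a pericyte gene of the same family, was at 5732 and 4428 CPM in pericyte-like cells (0.773, 0.752 to 0.794), and Rgs4 at 13.4 and 52.4 CPM in TM-2 (3.90, 2.12 to 7.75) from 13 and 61 UMIs.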

How the data were processed

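The authors deposited, for each library, raw UMI counts by gene and barcode made with Cell Ranger 4.0.0 against mm10, and these were used. The annotation release and the strand setting are not given in the sources used here. Cells above 8% mitochondrial UMIs were removed. Barcodes found in both libraries (52) were told apart by library. The study's cluster names came from cells listed in its source data, which were joined to the counts by their normalized values to within 0.55 of the last digit, with the sheets of Edn3 and Edn1 held out. All kept cells were clustered together with scanpy 1.11.5 and leidenalg 0.10.2 (15 components, 25 neighbors, resolution 0.8) without the 6 genes. Cells joined to a study name carried that name, and the rest were named by cluster. The rule for naming was settled after the clusters were seen. Scrublet, run through scanpy, marked 3.96% and 4.71% of cells as doublets, which were kept. The members and lists, including the 26 pathway genes and the 5 genes named per member by likeness, were chosen with earlier results of these data known. One gene of the likeness list of Ednrb is not reported here. Precision follows the UMIs of a class. On counts simulated from the real means, the 2-fold rule with at least 50 UMIs found 86% of 3-fold changes in pericyte-like cells, 97% in the uveal meshwork, 96% in TM-3 and 91% in TM-1. Of 1.5-fold changes it found 8%, 4%, 2% and 8% in the same order. The simulated counts held counting error only, without variation between cells, mice or pools. NumPy 2.4.6, SciPy 1.17.1, pandas 2.3.3 and matplotlib 3.10.9 were used in Python 3.11.15.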

Additional observations from a re-analysis of the deposited data

How the results depend on the processing

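No paired analysis was possible because each condition has 1 library. Of 592 ratios recomputed over 57 pairs of class and gene, 542 stayed within the counting interval and 569 on the same side of 1. The Edn3 ratio was 0.684 in TM-2 with cells thinned to 1000 UMIs. In TM-3 it was 0.824 with all classes rebuilt, 0.851 thinned and 0.900 in the juxtacanalicular cluster. The Ednra ratio in TM-3 was then 1.91, 1.84 and 1.81, and 1.99 as a mean over cells, so that it left the 2-fold rule under each of these. In the uveal meshwork the Edn3 ratio was 0.487 as a mean over cells, 0.50 thinned and 0.689 in the uveal cluster, and the Ednrb ratio in keratocyte-like cells was 0.673 thinned. Ednrb in melanocyte-like cells turned to 1.00 in cells with Mlana. Cluster splits and the Mlana split were chosen after seeing the data. Pairs past the rule were 1 higher and 3 lower with thinned cells, 13 lower with a minimum of 20 UMIs, and 10 higher and 16 lower at 1.5-fold, where the pathway lists gave 27 and 48. The causes were not tested. The beam and uveal clusters could not be named with all classes rebuilt, nor keratocyte-like cells at resolution 1.2 or without the mitochondrial filter, nor limbal and corneal epithelial-like cells at 0.4. Depth limits the classes with few cells, such as the 9 corneal endothelial-like and 23 SC and lymphatic cells of NC-Foxc2-/- mice.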

Other observations

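Cells that no class name could be given, 759 in control and 1460 in NC-Foxc2-/- mice, held Edn1 at 7.42 CPM (53 UMIs) and 15.3 CPM (166 UMIs), a ratio of 2.06 (1.51 to 2.87). Edn3 was at 48.9 and 32.1 CPM in them (0.657, 0.565 to 0.764), Ednrb at 73.4 and 43.8 CPM (0.597, 0.526 to 0.678) and Ednra at 14.0 and 18.8 CPM (1.34, 1.05 to 1.73). Their median depth was 9799 and 3903 UMIs, and their make-up was not tested.

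Macrophage-like cells without doublets were at 25.9 and 58.2 CPM of Ednrb, a ratio of 2.25 (1.66 to 3.07), against 1.75 with doublets. In 11.9% and 15.7% of the macrophage-like cells, doublets included, at least 1 Ednrb UMI was held. Among the endothelial subclusters, Edn3 was counted mostly in BEC-6, with 14 and 20 UMIs, or 62.1 and 83.6 CPM, where Ednra held 16 and 10 UMIs.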
